A study of Mus musculus with 18 samples.

Results

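Expression of 7 glycogen metabolism enzymes was followed in mouse stem cells cultured in low oxygen. The genes were taken by symbol, as Pgm1, Gys1, Gbe1, Ugp2, Gyg, Pygl and Pygb, out of 14804 genes listed in at least 1 of 3 expression tables. All 7 were listed for ESCs and TSCs, among 13578 and 13518 genes. In XEN cells 6 were listed among 11538 genes, and Pygl had no row. The study profiled embryonic stem cells (ESCs, wild-type line E14, grown without feeders), trophoblast stem cells (TSCs, grown on feeders) and extra-embryonic endoderm stem (XEN) cells, grown on gelatin in part in feeder-conditioned medium, by bulk RNA-seq of total RNA. For TSCs and XEN cells the labels give no line, and no treatment other than oxygen is given for any group. Each cell type was sampled in normoxia (20% O2) and on day 2 (acute) and day 7 (prolonged) of hypoxia (2% O2), with 2 replicate libraries per condition and 18 libraries in all. The deposited columns named day 0 were taken as normoxia.

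Glycogen is a branched glucose polymer that cells store in the cytoplasm and draw on when glucose or oxygen is limiting. For synthesis, phosphoglucomutase turns glucose 6-phosphate into glucose 1-phosphate, UDP-glucose pyrophosphorylase activates it, glycogenin primes a new chain, glycogen synthase lengthens the chain and the branching enzyme adds side chains. Glycogen phosphorylase releases glucose 1-phosphate again, which phosphoglucomutase returns to glycolysis. Genes of this pathway are known targets of the hypoxia-inducible factors (HIFs) in other cell types, and the placenta holds trophoblast cells that store glycogen.

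The largest responses among the enzymes were those of the phosphoglucomutase Pgm1. In TSCs, Pgm1 rose 3.49-fold on day 2 of hypoxia and fell again between day 2 and day 7 (0.465-fold). The liver isoform of glycogen phosphorylase, Pygl, was 2.33-fold higher in TSCs on day 2 and missed the threshold. In ESCs the fold changes of Pgm1 were as large on both days (3.31-fold and 3.33-fold) but did not pass the test, and the hypoxic replicates lay far apart (5.13 and 14.5 TPM on day 2). The glycogen synthase Gys1 was between 1.16-fold and 1.54-fold higher than in normoxia in all 6 comparisons, none of which passed. Ugp2, Gyg, Gbe1 and Pygb ran from 0.775-fold to 1.25-fold, none of them called, on a scale that understates the change of Gbe1.

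Library depth was 35592641 to 75204025 reads, recovered from the deposited values, and the enzymes had 38 to 13036 reads per library. The 6 markers of each cell type were all listed in their own cell type and summed highest there, at 6442 to 7300 TPM (reads per gene length, scaled to 1000000 per library) for ESC markers in ESCs, 8388 to 15461 TPM for TSC markers in TSCs and 1979 to 2486 TPM for XEN markers in XEN cells. Most of the TSC sum was Hand1 (7234 to 14763 TPM over the 6 TSC libraries), so the sum does not track the other TSC markers. The lists were not exclusive. ESC markers summed to 248 to 1289 TPM in TSCs, where only Pou5f1 had no row and Sox2 was at 660 and 714 TPM in normoxia, and to 624 to 1194 TPM in XEN cells, where 4 of 6 had no row and nearly all of the sum was Klf4. Fibroblast markers (8 of 8 listed in TSCs) summed to 1857 TPM in TSC normoxia 1 and 956 TPM in TSC hypoxia d2 2, against 204 to 431 TPM in the other TSC libraries. Fold changes of Pgm1, Gys1, Pygl, Ppp1r3b and Epm2a in TSCs are therefore given also without those 2 libraries (chosen after seeing the data). That leaves 1 library each in normoxia and on day 2, so those fold changes are given with no p-value or call. In bulk samples, fewer cells of a type and less RNA per cell cannot be told apart.

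Levels of the enzymes were compared with each other after scaling reads to exon length (exon-scaled TPM), since the deposited TPM divide by the whole gene with its introns. The marker sums above are on the deposited scale, where genes with little intron weigh more. On this scale Gys1 was the most abundant of the enzymes in normoxic ESCs (62.7 to 77.5 exon-scaled TPM) and Pygl the least (0.422 to 0.853). Between them stood Ugp2 (44.8 to 47.9), Pgm1 (13.3 to 17.3), Gyg (12.2 to 15.2), Pygb (10.2 to 12.5) and Gbe1 (5.98 to 6.75). The ranges of Pgm1 and Gyg overlapped, as did those of Gyg and Pygb, so these neighbours had no clear order.

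In normoxic TSCs the exon-scaled level of Gys1 was again highest (101 to 128), and that of Gbe1 lowest (6.57 to 7.15). Pgm1 (67.8 to 74.0), Ugp2 (64.6 to 72.5), Pygb (58.8 to 71.2) and Pygl (53.5 to 61.8) formed a run of overlapping neighbours above Gyg (43.0 to 53.2). In normoxic XEN cells Gyg led (113 to 132 exon-scaled TPM), followed by Pgm1 (58.3 to 66.2), and Gbe1 was lowest (5.52 to 6.63). Gys1 (40.0 to 48.1), Pygb (34.6 to 52.8) and Ugp2 (42.9 to 43.2) overlapped there. The tables were normalized separately, so levels are set side by side between cell types with no test.

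**Figure D1:**
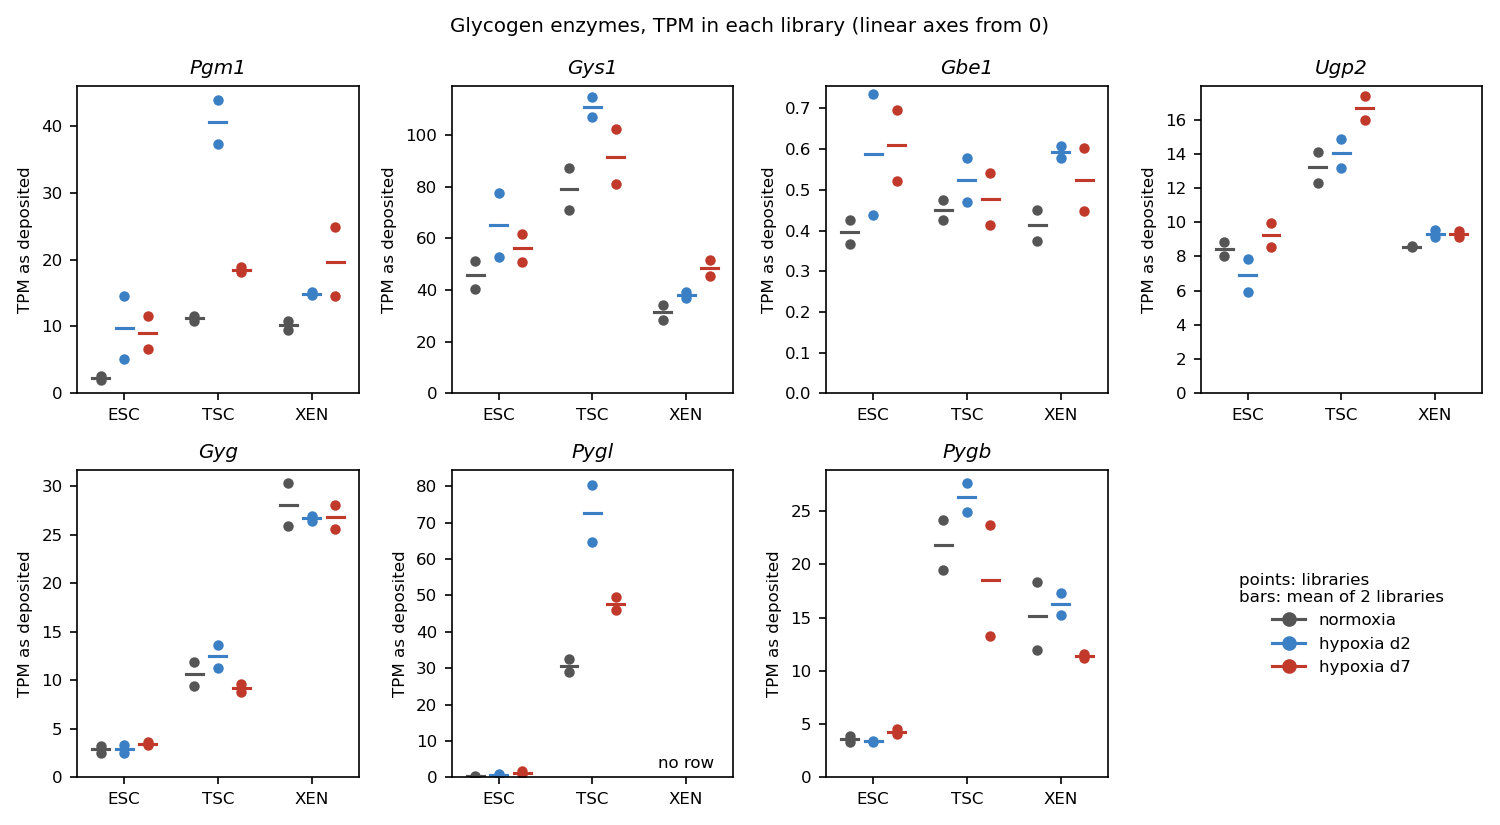
Deposited TPM (y axis, linear from 0) of each glycogen enzyme in ESCs, TSCs and XEN cells (x axis), with 1 point per library, a bar at the mean of 2 libraries, and colours for normoxia, hypoxia d2 and hypoxia d7. Pgm1 in TSCs stands at 43.8 and 37.2 TPM on day 2 against 10.9 and 11.6 TPM in normoxia, and the Pgm1 replicates of hypoxic ESCs lie far apart.

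A gene was called differentially expressed (DE) by limma on log2(TPM + 0.5) where its adjusted p (Benjamini-Hochberg, over all genes tested) was at most 0.1 and its fold change over 1.5. Fold changes and log2 fold changes are on that scale, which understates the change of low genes. With edgeR at the same thresholds, the study reported far more DE genes against normoxia in every cell type on both days than limma called here. A gene not called here may therefore be called by that test. In ESCs 0 of 7 enzymes were DE on day 2, where 0% of 12271 genes were, and 2 of 7 had an unadjusted p under 0.05 (5.05% of genes). On day 7, 0 of 7 were DE against 0.758% of all genes, with 2 at an unadjusted p under 0.05 (8.04%). Between day 7 and day 2, 0 of 7 were DE against 0.179% of genes, and 0 had an unadjusted p under 0.05 (4.26%). With both hypoxic days joined, 0 of 7 were DE against 0.302% of genes, with 2 at an unadjusted p under 0.05 (7.8%). The median log2 fold change of the 7 enzymes was 0.27 on day 2 and 0.30 on day 7, beside 0.01 and 0.02 over all genes tested. limma-voom on the recovered reads called 0 of 7 in each of the 4 ESC comparisons (0%, 0.905%, 0.212% and 0.0489% of all genes in that order).

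In TSCs 1 of 7 enzymes, Pgm1, was DE on day 2, where 0.2% of 12481 genes were, and 3 had an unadjusted p under 0.05 (13.1%). On day 7, 0 of 7 were DE against 0.385% of genes, with 2 at an unadjusted p under 0.05 (10.4%). Between day 7 and day 2, 1 of 7 was DE and lower, again Pgm1, in a comparison that called 16.2% of all genes and 13.8% of all genes lower, and 2 of 7 had an unadjusted p under 0.05 (27.9%). With both days joined, 0 of 7 were DE against 0% of genes, with 2 at an unadjusted p under 0.05 (5.44%). limma-voom called the same number of enzymes in each of the 4 TSC comparisons (0.272%, 0.2%, 15.6% and 0% of all genes). The median log2 fold change of all genes between day 7 and day 2 was -0.24, and that of the enzymes -0.41. With median-ratio scaling the median of all genes moved to 0.01, and the share of higher calls among all DE genes moved from 14.7% to 42.4%.

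On day 7 the TSC libraries held less of several trophoblast stem cell markers. Of the 6 TSC markers, Elf5 (0.290-fold, adjusted p = 0.0435) and Esrrb (0.307-fold, adjusted p = 0.0957) fell against normoxia, Cdx2 (0.287-fold, adjusted p = 0.124) and Eomes (0.305-fold, adjusted p = 0.125) missed the threshold with both libraries below normoxia, and Hand1 and Tfap2c overlapped normoxia. Between day 7 and day 2 the first 4 were all DE and lower. Hand1 and Tfap2c went the other way without overlap and were not DE. Hand1 was at 8568 and 7234 TPM on day 2 and 14763 and 12872 TPM on day 7, and Tfap2c at 383 and 404, then 488 and 463. No TSC marker was DE on day 2. The part of this shift in the TSC results on day 7 was not tested.

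In XEN cells 0 of 6 enzymes were DE on day 2 (0% of 10894 genes), on day 7 (0.11%), between the days (0.0367%) or with both days joined (0.0918%), by limma. limma-voom called 0 of 6 in each (0%, 0.0551%, 0.0184% and 0.00918% of genes). An unadjusted p under 0.05 was reached by 0, 2, 0 and 2 of them in that order (7.77%, 9.01%, 11.9% and 7.59% of genes). The median log2 fold change of the 6 enzymes was 0.20 on day 2 and 0.14 on day 7, beside -0.01 and -0.03 over all genes tested. Comparisons within a cell type share control libraries and are not independent.

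Libraries of hypoxia and normoxia did not overlap in ESCs for 4 of 7 enzymes that were higher on day 2 (16.4% of all genes) and 5 of 7 on day 7 (23% of all genes), with 1 of 7 lower on day 2 (14.4%) and 0 of 7 on day 7 (17.5%). In TSCs 4 of 7 were higher without overlap on day 2 (30.6%) and 3 of 7 on day 7 (8.98%), with 0 of 7 lower on either day (16.9% and 32.3%). In XEN cells 4 of 6 were higher without overlap on day 2 (19.6%) and 3 of 6 on day 7 (17.5%), with 0 of 6 and 1 of 6 lower (21.4% and 23.9%). Exact permutation of 2 libraries against 2 cannot give a two-sided p below 0.3333.

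**Figure D2:**
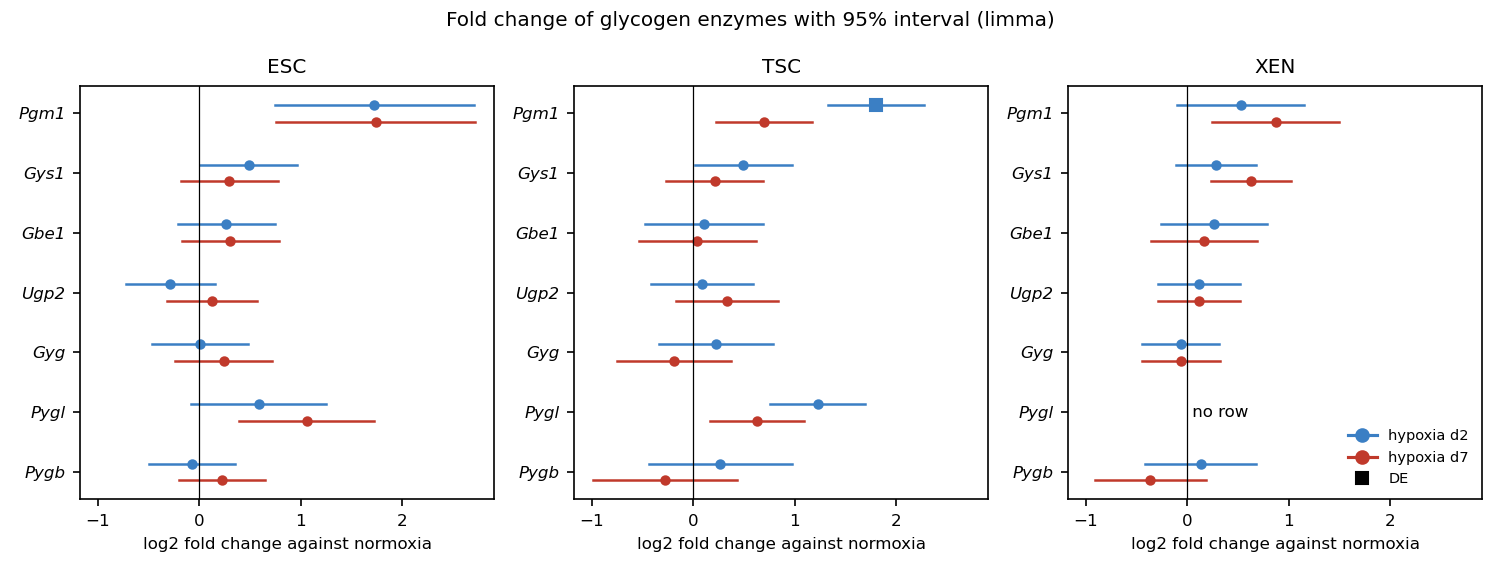
Log2 fold change against normoxia (x axis) of each glycogen enzyme (y axis) on day 2 and day 7 of hypoxia, with the 95% interval from limma as a line and a square where the gene was DE. The square stands at Pgm1 on day 2 in TSCs (1.80), and the intervals of Pgm1 in ESCs on both days and of Pygl in TSCs on both days lie above 0 without a call.

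Pgm1 interconverts glucose 1-phosphate and glucose 6-phosphate and so serves both synthesis and breakdown. Its gene spans chr4:99929414-99987294 on the plus strand (mm10). In ESCs the deposited TPM of Pgm1 were 2.63 and 1.97 in normoxia, 5.13 and 14.5 after 2 days of hypoxia, and 11.6 and 6.61 after 7 days. All 4 hypoxic libraries stood above both normoxic ones, but the replicates of each hypoxic day lay far apart. The log2 fold change was 1.73 (SE 0.43, 95% interval 0.74 to 2.71, adjusted p = 0.602) on day 2 and 1.74 (SE 0.43, 0.75 to 2.72, adjusted p = 0.207) on day 7. Without ESC hypoxia d2 replicate 1 the adjusted p of Pgm1 was 0.00909 on day 2 and 0.00696 on day 7, and without ESC hypoxia d2 replicate 2 it was 0.00737 on day 7. A fit to the day 7 and normoxic libraries alone gave 0.00746. The other single libraries left out gave no call, and over all 6 the log2 fold change ran from 1.02 (without ESC hypoxia d2 replicate 2) to 2.43 (without replicate 1) on day 2 and from 1.35 to 2.12 on day 7, with an adjusted p of up to 0.9996 and 0.9999.

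In TSCs the deposited TPM of Pgm1 were 10.9 and 11.6 in normoxia, 43.8 and 37.2 after 2 days of hypoxia, and 18.1 and 18.9 after 7 days. The groups were separate, with day 2 highest, day 7 between and normoxia lowest. Against normoxia Pgm1 rose by 1.80 (SE 0.20, 95% interval 1.33 to 2.28, adjusted p = 0.0657) on day 2, and its log2 fold change on day 7 was 0.70 (SE 0.20, adjusted p = 0.299). From day 2 to day 7 Pgm1 fell by 1.11 on the log2 scale (SE 0.20, adjusted p = 0.0295), or by 0.83 with median-ratio scaling (adjusted p = 0.0655). Without the 2 libraries rich in fibroblast markers Pgm1 was at 1.87 on day 2, 0.65 on day 7 and -1.22 between the days. The day 2 call was lost when TSC normoxia replicate 1 (adjusted p = 0.129), either day 2 library (0.459 without replicate 1 and 0.134 without replicate 2) or either day 7 library (0.243 and 0.240) was left out, and in a fit to the 4 libraries compared (0.244). The fall to day 7 was lost without TSC hypoxia d2 replicate 1 (0.203) and without either day 7 library (0.107 and 0.179).

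In XEN cells the deposited TPM of Pgm1 were 9.55 and 10.8 in normoxia, 14.7 and 15.1 after 2 days of hypoxia, and 14.5 and 24.9 after 7 days. Both hypoxic days stood above normoxia, and the day 7 replicates enclosed those of day 2. The log2 fold change was 0.53 (SE 0.26, adjusted p = 0.690) on day 2 and 0.87 (SE 0.26, adjusted p = 0.430) on day 7, and neither passed the test.

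HIF dimers bind a short core that is written ACGTG or GCGTG. RefSeq promoters (GRCm38.p6) were matched for all 7 enzymes in 8 windows, and the 250 bases before the start of the gene were searched for both motifs on both strands, a match to ACGTG and its reverse complement counting separately in a palindromic CACGTG. Of 32851 promoters, 16.6% held ACGTG, 6.81% held it at least 2 times, and 28.2% held GCGTG. The windows of the enzymes with the largest fold changes, Pgm1 and Pygl, are shown with that of Gys1, with capitals marking each match on either strand. The starts are those of RefSeq, and the Pygl window lies inside the longer GENCODE span of that gene. The windows are chr4:99929201-99929450 on the plus strand, chr12:70227684-70227933 on the minus strand and chr7:45434589-45434838 on the plus strand.
Pgm1: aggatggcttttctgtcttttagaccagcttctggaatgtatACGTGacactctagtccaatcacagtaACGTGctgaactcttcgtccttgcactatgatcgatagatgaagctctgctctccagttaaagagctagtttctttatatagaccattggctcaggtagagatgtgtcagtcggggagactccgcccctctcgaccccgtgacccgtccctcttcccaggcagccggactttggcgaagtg
Pygl: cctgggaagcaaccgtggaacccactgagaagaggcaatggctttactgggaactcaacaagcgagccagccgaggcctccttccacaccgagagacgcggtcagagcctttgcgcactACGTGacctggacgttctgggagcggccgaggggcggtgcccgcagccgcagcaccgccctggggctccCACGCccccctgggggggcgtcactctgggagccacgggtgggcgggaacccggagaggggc
Gys1: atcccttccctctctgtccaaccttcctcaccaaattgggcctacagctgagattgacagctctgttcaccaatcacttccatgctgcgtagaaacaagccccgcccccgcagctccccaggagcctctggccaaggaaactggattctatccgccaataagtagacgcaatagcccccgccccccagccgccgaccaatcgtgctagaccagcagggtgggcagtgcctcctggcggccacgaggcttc
The window of Pgm1 held ACGTG at 2 positions, with first bases at -208 and -181 from the start, both on the strand of the gene. The window of Pygl held ACGTG at -131 and, on the opposite strand, GCGTG at -62. The windows of Gys1 and Gbe1 held neither motif. Pygb held 1 of each, Gyg held 1 GCGTG, and of the 2 windows of Ugp2 only the one further from the gene body held matches, 1 ACGTG and 5 GCGTG. These are matches of letters in a short window. The study profiled binding of HIF1α in ESCs by ChIP-seq, and those data were not used for these windows.

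Ugp2 makes UDP-glucose, the donor for chain growth, and Gyg encodes glycogenin, the protein primer of a glycogen particle. Ugp2 lies at chr11:21321138-21371201 and Gyg at chr3:20122084-20155317, both on the minus strand. In ESCs the TPM of Ugp2 were 8.85 and 8.04 in normoxia, 7.84 and 5.94 after 2 days of hypoxia, and 9.97 and 8.55 after 7 days, with day 2 below normoxia and day 7 overlapping it. In TSCs they were 14.1 and 12.3, then 13.2 and 14.9, then 17.4 and 16.0, with day 7 above normoxia. In XEN cells they ran from 8.53 to 9.54 over all 6 libraries, with both normoxic values lowest. None of the log2 fold changes of Ugp2 against normoxia, from -0.29 to 0.33, passed the test (adjusted p from 0.651 to 0.987).

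The TPM of Gyg ran from 2.51 to 3.65 in ESCs, from 8.82 to 13.6 in TSCs and from 25.6 to 30.3 in XEN cells over the 6 libraries of each. Normoxia and day 2 overlapped in all 3 cell types, and only in ESCs did day 7 stand apart from normoxia (3.31 and 3.65 against 3.24 and 2.53 TPM). Its log2 fold changes against normoxia lay between -0.19 and 0.24, with 95% intervals reaching from -0.76 to 0.78, and between the days in TSCs it was at -0.41 (95% interval -0.97 to 0.15). In exon-scaled TPM, Gyg ran from 112 to 132 in XEN cells, set beside 42.3 to 60.8 in TSCs and 11.8 to 17.4 in ESCs, with no test between the tables.

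Gys1 encodes glycogen synthase outside the liver, which lengthens the chain, and lies at chr7:45434844-45456619 on the plus strand. In ESCs its TPM were 51.4 and 40.4 in normoxia, 52.8 and 77.5 after 2 days of hypoxia, and 61.9 and 50.8 after 7 days. Day 2 stood above normoxia and day 7 overlapped it. The log2 fold change was 0.49 (SE 0.21, adjusted p = 0.970) on day 2 and 0.30 (SE 0.21, adjusted p = 0.866) on day 7, and without ESC hypoxia d2 replicate 1 that of day 2 was 0.76 (adjusted p = 0.0865). When any of the other 5 libraries was left out Gys1 was not called there, and its day 2 value was as low as 0.21 (without ESC hypoxia d2 replicate 2), with an adjusted p of up to 0.9996.

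In TSCs the TPM of Gys1 were 70.9 and 87.1 in normoxia, 107 and 115 after 2 days of hypoxia, and 102 and 80.9 after 7 days. Day 2 was the group apart, and the log2 fold change of Gys1 was 0.49 (SE 0.20, adjusted p = 0.373). It was 0.29 without the 2 libraries rich in fibroblast markers. In XEN cells the TPM of Gys1 were 28.5 and 34.3, then 36.8 and 39.3, then 45.5 and 51.8. The 3 groups did not overlap, with day 7 highest and day 2 between. Neither step passed the test, at 0.28 on day 2 (adjusted p = 0.731) and 0.35 between the days (adjusted p = 0.434). The day 7 log2 fold change of Gys1 in XEN cells was 0.63 (SE 0.17, 95% interval 0.23 to 1.02, adjusted p = 0.378).

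Gbe1, the branching enzyme, lies at chr16:70313949-70569716 on the plus strand, a span of 255767 bases with 5352 bases of exons. Its deposited TPM, divided by that span, were 0.367 to 0.736 over the 6 ESC libraries, 0.414 to 0.579 in TSCs and 0.375 to 0.608 in XEN cells. Hypoxic libraries of ESCs stood above normoxic ones on both days, as did those of XEN cells on day 2. The log2 fold changes against normoxia were 0.04 to 0.30, and none passed the test.

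The phosphorylases break the chain down, with Pygl known as the liver isoform and Pygb as the brain isoform. Pygl lies at chr12:70190811-70231488 on the minus strand and Pygb at chr2:150786735-150831758 on the plus strand. In TSCs the TPM of Pygl were 28.8 and 32.6 in normoxia, 80.4 and 64.8 after 2 days of hypoxia, and 49.4 and 46.0 after 7 days. As for Pgm1, the groups did not overlap, with day 2 highest and day 7 between. The log2 fold change of Pygl was 1.22 (SE 0.20, 95% interval 0.76 to 1.69, adjusted p = 0.116) on day 2 and 0.63 (SE 0.20, adjusted p = 0.341) on day 7, and the difference between the days was -0.59 (SE 0.20, adjusted p = 0.109). Without the 2 libraries rich in fibroblast markers Pygl was at 1.29 on day 2, 0.54 on day 7 and -0.75 between the days.

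In ESCs Pygl was low, at 0.436 and 0.210 TPM in normoxia, 0.522 and 0.960 after 2 days of hypoxia, and 1.66 and 0.827 after 7 days. Hypoxic libraries stood above normoxic ones on both days. The day 7 log2 fold change was 1.06 (SE 0.29, adjusted p = 0.288), and it passed in a fit to the day 7 and normoxic libraries alone (adjusted p = 0.0777) and without either day 2 library (0.0767 and 0.0772). It did not pass when any of the 4 libraries compared was left out, where it ran from 0.70 to 1.41 with an adjusted p of up to 0.9999. The TPM of Pygb ran from 3.28 to 4.51 in ESCs, 13.3 to 27.6 in TSCs and 11.2 to 18.3 in XEN cells. Pygb was not DE in any comparison, and its log2 fold changes against normoxia ran from -0.37 to 0.27.

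Shares of isoforms were taken from exon-scaled TPM and are descriptions with no test. Pgm1 made up 30.9% and 28.8% of the summed level of Pgm1 and Pgm2, a second phosphoglucomutase gene, in normoxic ESCs, 46.0% and 64.9% after 2 days of hypoxia, and 59.2% and 45.8% after 7 days. In TSCs the share was 32.5% and 32.1%, then 60.3% and 59.6%, then 45.9% and 50.3%. Both hypoxic days stood above normoxia in both cell types. In XEN cells it was 22.4% and 41.2%, then 28.1% and 41.1%, then 49.6% and 58.5%, where only day 7 stood above normoxia and the TPM of Pgm2 in normoxia were 47.9 and 22.5.

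Pygl made up 42.6% and 50.2% of the summed level of Pygl, Pygb and Pygm, the muscle isoform, in normoxic TSCs, 64.3% and 61.8% after 2 days of hypoxia, and 56.5% and 67.9% after 7 days. In ESCs it was 6.01% and 2.65% in normoxia, 6.73% and 12.3% after 2 days of hypoxia, and 16.3% and 9.03% after 7 days, with Pygb between 67.1% and 78.8% in all 6 libraries. Every hypoxic library of both cell types lay above the normoxic ones. In XEN cells, where Pygl had no row, Pygb made up 95.3% to 98.6%.

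**Figure D3:**
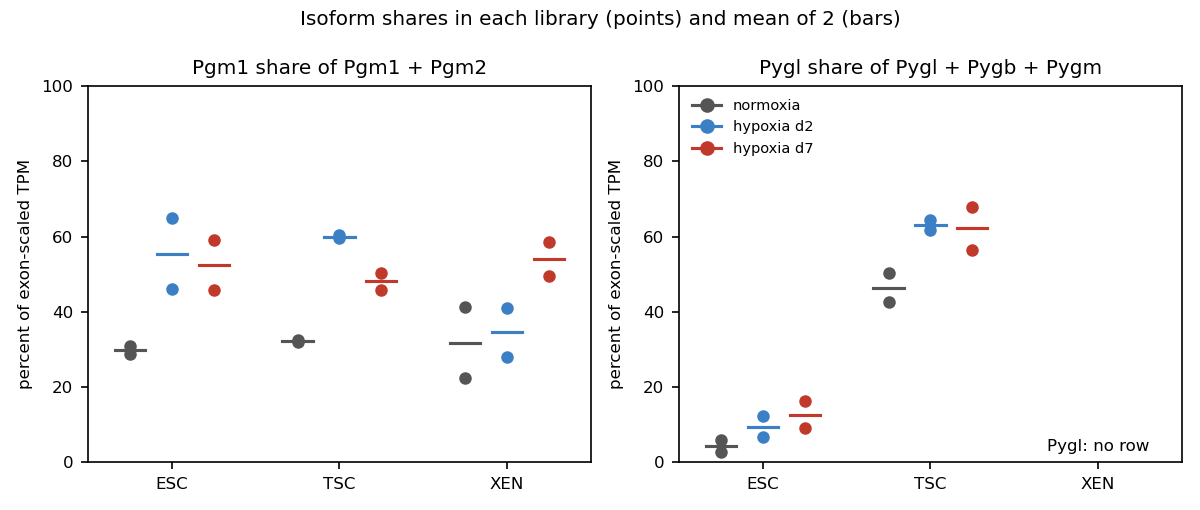
Share (y axis, percent of exon-scaled TPM, 0 to 100) of Pgm1 in Pgm1 + Pgm2 on the left and of Pygl in the 3 phosphorylases on the right, by cell type (x axis), with 1 point per library and a bar at the mean of 2. In TSCs the Pgm1 share moves from 32.5% and 32.1% in normoxia to 60.3% and 59.6% on day 2.

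The enzymes were set beside known hypoxia genes in the same libraries. In ESCs Bnip3, a mitophagy receptor induced in low oxygen, was at 12.0 and 12.7 TPM in normoxia, 29.0 and 74.9 TPM after 2 days of hypoxia, and 61.3 and 31.2 TPM after 7 days. Replicate 2 was higher on day 2 and replicate 1 on day 7, the same order as for Pgm1, Gys1, Gbe1 and Pygl, and Egln3, a HIF prolyl hydroxylase gene, had it too (12.5 and 31.6 TPM on day 2, 28.3 and 14.6 TPM on day 7). The part of this spread between replicates in the ESC results was not tested.

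In TSCs Bnip3 was at 15.7 and 16.2 TPM in normoxia, 86.5 and 93.2 TPM after 2 days of hypoxia, and 25.0 and 26.8 TPM after 7 days, so that day 2 stood apart as for Pgm1. Pdk1 was at 15.5 and 14.5 TPM in normoxia, 89.6 and 82.0 TPM on day 2 and 15.6 and 15.2 TPM on day 7. In XEN cells on day 7 the 5 hypoxia genes ran, as TPM over the normoxic mean, from Ldha, a lactate dehydrogenase gene (1.15 and 1.65), and Slc2a1, a glucose transporter gene (1.84 and 2.54), through Bnip3 (2.80 and 3.25) and Pdk1 (4.03 and 7.03) to Egln3 (6.14 and 8.40). Pgm1 (1.42 and 2.44) lay among the lower of them.

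**Figure D4:**
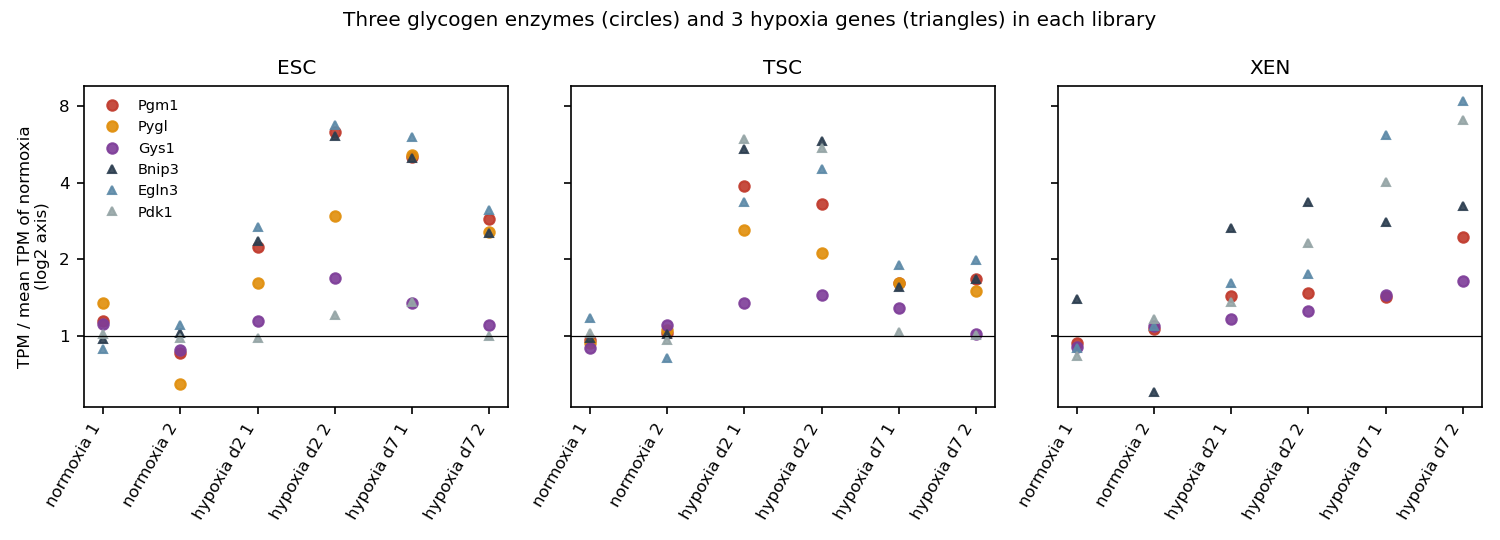
TPM of each library divided by the mean TPM of normoxia in the same cell type (y axis, log2 scale) for Pgm1, Pygl and Gys1 (circles) and the hypoxia genes Bnip3, Egln3 and Pdk1 (triangles), with the 6 libraries of each cell type along the x axis. In TSCs Pgm1 stands at 3.90 and 3.31 times normoxia on day 2 and at 1.61 and 1.68 times on day 7.

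A wider list of 23 glycogen genes covered other isoforms, debranching and lysosomal breakdown, quality control, the targeting subunits that bring protein phosphatase 1 to glycogen, phosphorylase kinase and the synthase kinases. In ESCs 19 were listed and 17 tested, and limma called 0 on either day (0% and 0.758% of all genes), with 3 at an unadjusted p under 0.05 on each day, all higher (5.05% and 8.04% of all genes in either direction). In XEN cells 14 of 15 listed were tested, with 0 called on either day (0% and 0.11%) and an unadjusted p under 0.05 for 1 higher and 1 lower on day 2 (7.77%) and 0 on day 7 (9.01%). In TSCs all 19 listed were tested, with 0 called on day 2 against 0.2% of all genes (2 at an unadjusted p under 0.05, both higher, against 13.1%) and 0 on day 7 against 0.385% (0 at that p, against 10.4%). Between day 7 and day 2 in TSCs, 2 of 19 were DE and lower, Ppp1r3b and Epm2a, beside the 13.8% of all genes called lower there. limma-voom called Epm2a on day 2 (0.272% of all genes) and Ppp1r3b, Epm2a and Phka2, a phosphorylase kinase subunit, between the days, 3 of 19 where it called 15.6% of all genes.

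Ppp1r3b encodes a targeting subunit of protein phosphatase 1 that promotes glycogen synthesis. In TSCs its TPM were 6.55 and 4.43 in normoxia, 16.2 and 24.4 after 2 days of hypoxia, and 5.97 and 4.89 after 7 days. Only day 2 stood apart, with a log2 fold change of 1.79 (SE 0.31, adjusted p = 0.124) against normoxia and -1.79 (SE 0.31, adjusted p = 0.0270) from day 2 to day 7. Without the 2 libraries rich in fibroblast markers Ppp1r3b was at 1.76 on day 2 and at -1.50 between the days. The fall was lost without TSC hypoxia d2 replicate 1 (adjusted p = 0.129) and without either day 7 library (0.105 and 0.191).

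Epm2a encodes laforin, a phosphatase that keeps glycogen soluble. Its TPM in TSCs were 0.142 and 0.112 in normoxia, 0.790 and 0.736 after 2 days of hypoxia, and 0.243 and 0.225 after 7 days, or 56 and 48, 366 and 340, and 110 and 108 reads. The groups did not overlap, day 2 being highest. The log2 fold change between day 7 and day 2 was -0.78 (SE 0.24, adjusted p = 0.0885). It no longer passed when any hypoxic TSC library was left out (adjusted p from 0.174 to 0.328), with a pseudocount of 1 or with median-ratio scaling. Without the 2 libraries rich in fibroblast markers Epm2a was at 1.08 on day 2 and at -0.81 between the days.

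**Figure D5:**
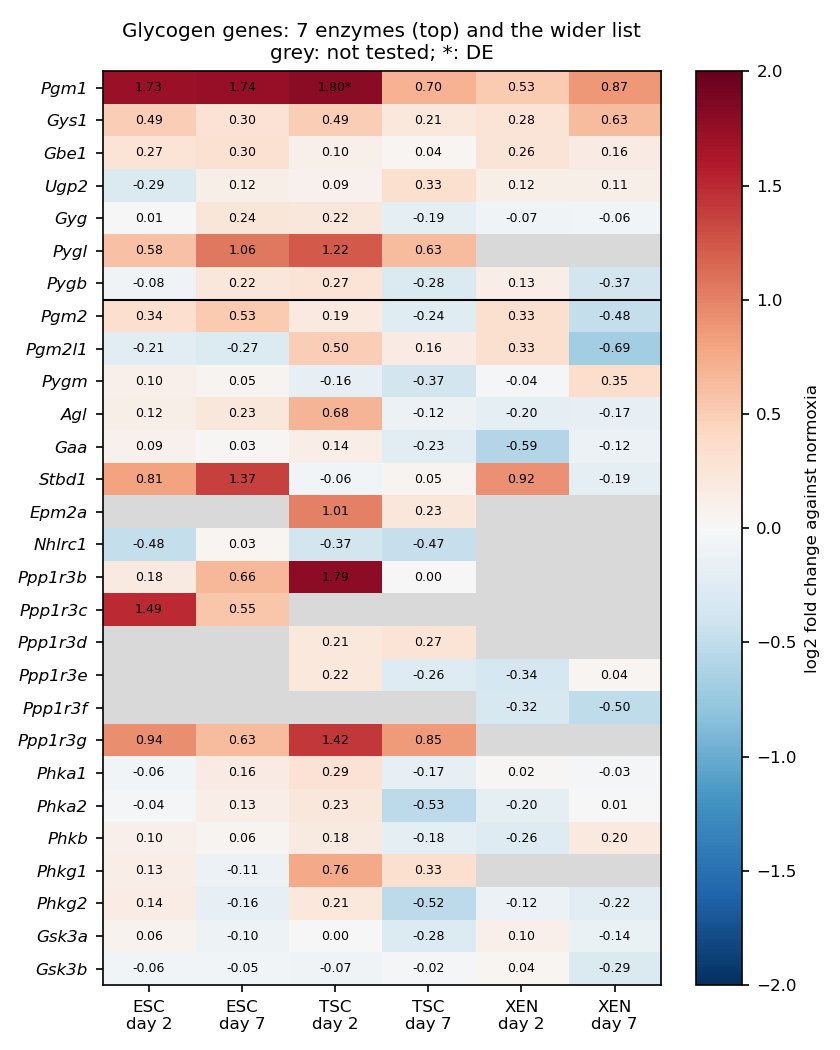
Log2 fold change against normoxia (colour and printed value) on day 2 and day 7 in each cell type (x axis) for the 7 enzymes (above the line) and the wider glycogen list (y axis), with grey for genes not tested and an asterisk for DE. The asterisk stands at Pgm1 on day 2 in TSCs (1.80), and Ppp1r3b in TSCs stands at 1.79 on day 2 and 0.00 on day 7.

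The genes most like each enzyme were taken by Pearson r over libraries of log2(TPM + 0.5) less the mean of the cell type, which share depth and the hypoxic groups, so the values describe and are not tested. For Pgm1 these were Tpi1 (0.939) and Aldoa (0.933), both glycolytic enzymes, and Prelid2 (0.914), over 18 libraries and 10081 genes. For Gys1 they were Dixdc1 (0.862), Egln3 (0.853) and Prelid2 (0.850). For Pygl, over 12 libraries and 11287 genes, they were Prelid2 (0.936), Zap70 (0.931) and Pgm1 itself (0.926). For Gbe1 they were Zscan2 (0.915), Rnf19a (0.835) and Pxdn (0.811), and for Ugp2 Msln (0.790), Slc25a14 (0.765) and Abracl (0.745). Gyg came with Cmtr2 (0.857), Stard8 (0.856) and Plrg1 (0.852), and Pygb with Rab3gap1 (0.898), Gpd1l (0.890) and Galnt10 (0.877).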

How the data were processed

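Values were deposited by the authors as TPM, 1 table per cell type with 6 libraries each. Per the labels and the study's methods, reads were trimmed with cutadapt (version 2.4), aligned with STAR (version 2.7.5a) to mm10 and counted with featureCounts, and the tables were limited by the authors to protein-coding genes over 0.4 CPM in 2 or more of the 6 libraries. Whole reads were recovered from the deposited TPM as multiples of a step per library over gene span (98.7% to 98.9% whole within 0.05) and gave depth and exon-scaled TPM. GENCODE gene models of the same build were used. limma (version 3.58.1, R version 4.3.3) was fitted with trend to log2(TPM + 0.5) of the 6 libraries of a cell type, for genes above 0.4 TPM in at least 2, with condition as the term. p-values are two-sided and set a difference of condition means against the spread between replicate libraries. That spread is shared over the conditions of a cell type and moderated over all genes tested. The fit was tested on simulated data. Alternatives were the pseudocount, no filter, median-ratio scaling, a replicate block, the libraries compared alone, leaving out each library, limma-voom on recovered reads and a stricter threshold. All 7 enzymes were named, wider-list genes when called, the 3 genes most like each enzyme, hypoxia genes and markers. Members and lists were chosen with earlier results of these data known.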

Additional observations from a re-analysis of the deposited data

Results flagged for a closer look

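Each difference here was noted because all libraries of one cell type moved one way and all libraries of another the opposite way in the same contrast. None passed the test within its cell type, and the difference between cell types was not tested. The share of all genes that met this rule was not counted, with 2 libraries per group. The differences are therefore not read as particular to the enzymes or to a cell type.

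Between day 7 and day 2, Gys1 had a log2 fold change of -0.28 in TSCs and 0.35 in XEN cells. Against normoxia, Ugp2 on day 2 had one of -0.29 in ESCs and 0.12 in XEN cells. Gyg between day 7 and day 2 was at 0.23 in ESCs and -0.41 in TSCs. For Pygb the day 7 value against normoxia was 0.22 in ESCs and -0.37 in XEN cells, and from day 2 to day 7 it was 0.30 (ESCs), -0.55 (TSCs) and -0.50 (XEN cells). The TSC values between the days stand beside a median of -0.24 over all genes, and with median-ratio scaling Gys1 in TSCs was at -0.0062.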

How the results depend on the processing

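The only enzyme called against normoxia, Pgm1 in TSCs on day 2, lost its call under many settings. The number called there went from 1 to 0 with the replicate block, in the fit to only the libraries compared and at an adjusted p at or under 0.05. With both fibroblast-rich libraries left out (chosen after seeing the data), normoxia and day 2 keep 1 library each, so no calls are counted for that setting. In ESCs on day 7 it went from 0 to 2 in the fit to only the libraries compared. Leaving out each library gave 0 to 2 calls in ESCs on day 2, day 7 and both days joined, 0 to 1 in TSCs on day 2 and between the days, and 0 elsewhere, a lone replicate being assumed to vary like the other groups. The cause was not tested. Alternatives were run for 6 to 11 comparisons of each enzyme, not for all. There the sign of the log2 fold change held in 133 of 133 for Pgm1, 144 of 144 for Gys1, 93 of 93 for Pygl, 78 of 80 for Gbe1, 79 of 80 for Ugp2, 101 of 107 for Gyg and 117 of 120 for Pygb. Gyg in ESCs on day 2 turned from 0.0056 to -0.0071 with median-ratio scaling. Leaving out libraries gave ranges across 0 for Gyg in ESCs on day 2 (-0.16, -0.15 and up to 0.17), Gyg in XEN cells on day 2 (-0.18 to 0.044) and day 7 (-0.17 to 0.051), Pygb in ESCs on day 2 (-0.19 to 0.038), in TSCs on day 7 (-0.69 to 0.12) and in XEN cells on day 2 (-0.16 to 0.43), Ugp2 in TSCs on day 2 (-0.012 to 0.18), Gbe1 in TSCs on day 7 (-0.058 to 0.13) and Ppp1r3b in TSCs on day 7 (-0.25 to 0.26). On the deposited scale, Pgm1 ranked 5 in place of 3 of the enzymes in normoxic ESCs. In normoxic XEN cells Gys1 (mean 31.4 TPM) led there in place of Gyg (28.1). In normoxic TSCs Pygl (30.7) and Pygb (21.8) stood above Pgm1 (11.2) on that scale. The fit to only the libraries compared was not run for both days joined, where it is the same fit.

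The labels share replicate numbers, but libraries with the same number correlated from -0.46 to 0.27 in their deviation from the group mean, so the numbers were not taken as pairs. With the replicate block the adjusted p of Pgm1 was 0.193 on day 2 and 0.0467 between the days in TSCs, and that of Epm2a was 0.116. Depth limits Pygl in ESCs most, at 38 reads in its lowest library. Sequencing was paired-end and the recovered count of Pygl was even in every ESC library. Reads may therefore be mates counted singly, with fewer fragments than reads, which was not tested.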

Other observations

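Stbd1, a glycogen-binding protein that takes glycogen to lysosomes, was not DE and is named after its values were seen. In ESCs its TPM were 1.79 and 1.14 in normoxia, 2.31 and 3.61 after 2 days of hypoxia, and 6.18 and 3.28 after 7 days, with every hypoxic library above the normoxic ones, 1.37 as its day 7 log2 fold change (adjusted p = 0.174) and 18 to 104 reads. In XEN cells its TPM were 2.61 and 2.34 in normoxia, 5.40 and 4.85 after 2 days of hypoxia, and 2.55 and 1.73 after 7 days. Day 2 alone stood apart there, with a log2 fold change of 0.92 against normoxia (adjusted p = 0.432) and -1.11 from day 2 to day 7 (adjusted p = 0.373). In TSCs the normoxic libraries held 40.9 and 14.5 TPM of Stbd1 and enclosed all 4 hypoxic ones.

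Markers of glycogen trophoblast and spongiotrophoblast were listed for 4 of 6 genes in TSCs, without Tpbpa and Prl7b1, and summed to 474 and 475 TPM in normoxia, 389 and 617 TPM after 2 days of hypoxia, and 554 and 604 TPM after 7 days. Day 7 stood above normoxia, and day 2, where Pgm1 and Pygl were highest, enclosed it. Of them Plac8 rose on day 7 (12.9-fold, adjusted p = 0.0733). Their part in the glycogen enzyme values was not tested.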
